A study of Mus musculus with 6 samples.

Results

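The Rab GTPases were taken as every gene probe set whose mouse symbol is Rab followed by a number and, where present, a further letter or digit, which leaves out effectors and regulators whose names also begin with Rab. The rule found 56 members among 16331 gene probe sets. The study read RNA of mouse liver on 6 Affymetrix arrays as biotinylated cRNA. Ugcg-deficient liver was measured on arrays KO 427, KO 429 and KO 431, and wildtype liver on arrays WT 426, WT 428 and WT 430. Ugcg encodes ceramide glucosyltransferase, which makes glucosylceramide, the starting lipid of most glycosphingolipids. The allele, the promoter or cell type of any deletion, the strain, the sex and the age are not given in the labels used here. Nor do the labels say whether the arrays come from separate animals, so the p-values rest on array-to-array spread that could be technical.

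Rab proteins are small GTPases that give the membranes of the secretory and endocytic pathways their identity. A Rab holds to its membrane by prenyl anchors and, when bound to GTP, recruits effectors such as tethers, motors and lipid kinases. Exchange factors load the GTP, GTPase activating proteins end the active state, and the GDP dissociation inhibitor takes the inactive Rab back to the cytosol. Hepatocytes use this traffic to export plasma proteins and lipoproteins, to take up ligands with their receptors at the blood-facing membrane and to carry membrane proteins to the bile canaliculus.

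Values are log2 expression, and each difference is KO minus WT on that scale. A principal component with 31.5% of the variance set WT 430 and KO 427 apart from the other 4 arrays. The 7 measured hepatocyte markers lay at percentile 94.3 of signal or above. The 8 macrophage markers averaged -0.12, 0.19 and -0.40 from their WT mean on the KO arrays, against 0.14, -0.06 and -0.08 on the WT arrays, in array order. The 10 of 12 exocrine pancreas markers that were measured averaged 1.82 above their WT mean on WT 430, against -1.03 to -0.83 on the other arrays; their summed level on a log2 scale was 10.58 to 11.05 on the KO arrays and 10.86 to 12.92 on the WT arrays. The 5 skeletal muscle markers averaged 0.71 above their WT mean on KO 427, against -0.06 to 0.06 on the other arrays. On KO 431 the 4 measured of 5 neutrophil markers averaged 0.58 above their WT mean, against -0.09 to 0.23 on the other arrays. S100a8 (7.76) and S100a9 (7.59) lay above all WT arrays there, while Elane (6.875) and Mpo (6.29) lay inside the WT range. The 5 measured of 7 adipose markers averaged 0.55 on KO 431, against -0.03 to 0.02. Of these, Adipoq, Fabp4 and Retn lay above all WT arrays, Cidec lay inside the WT range and Car3 below it. Their summed level on a log2 scale was 13.84 on KO 431, inside the 13.82 to 13.88 of the WT arrays. Ugcg itself read 7.12, 6.70 and 6.68 on the KO arrays, against 6.81, 6.85 and 6.87 on the WT arrays. The groups overlapped, with a difference of -0.0088 (95% interval -0.27 to 0.26, limma adjusted p = 0.998). Where its probes lie relative to the deleted part is not given here, so Ugcg leaves the genotype labels unchecked.

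The comparison asked whether liver deficient in Ugcg differed from wildtype liver in the transcripts of the Rab family. None of the family passed: 0 of 56 Rabs had a Benjamini-Hochberg adjusted p under 0.05 in limma's fit over the whole table, where 0.0245% of all probe sets did. At an unadjusted p under 0.05 there were 3 Rabs, or 5.36%, against 4.99% of all probe sets. Rab3b and Rab20 were higher on the KO arrays (background 2.64%) and Rab38 was lower (background 2.35%). These shares lie near the background. Differences ran from -0.37 for Rab38 to 0.27 for Rab20, with a median of 0.04, against a median of 0.00586 over all probe sets. In all, 34 Rabs, or 60.7%, had a difference above 0, against 52.5% of all probe sets. In bulk tissue, fewer cells of a type and less RNA per cell cannot be told apart.

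Each interval bounds the difference in signal of a single Rab, and the intervals do not bound the family jointly. The 95% interval of the difference lay inside a 1.5-fold change in either direction for 56 of 56 Rabs, against 97.1% of all probe sets. It lay inside a 1.3-fold change for 52 Rabs, or for 84.7% of all probe sets. The outermost bounds were -0.56 for Rab38 and 0.53 for Rab20. The median SD within groups was 0.09 among Rabs and 0.10 over all probe sets. Among Rabs it was 0.10 for the brighter ones and 0.06 for the dimmer ones. A narrow interval at low signal may say little about the transcript.

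**Figure D1:**
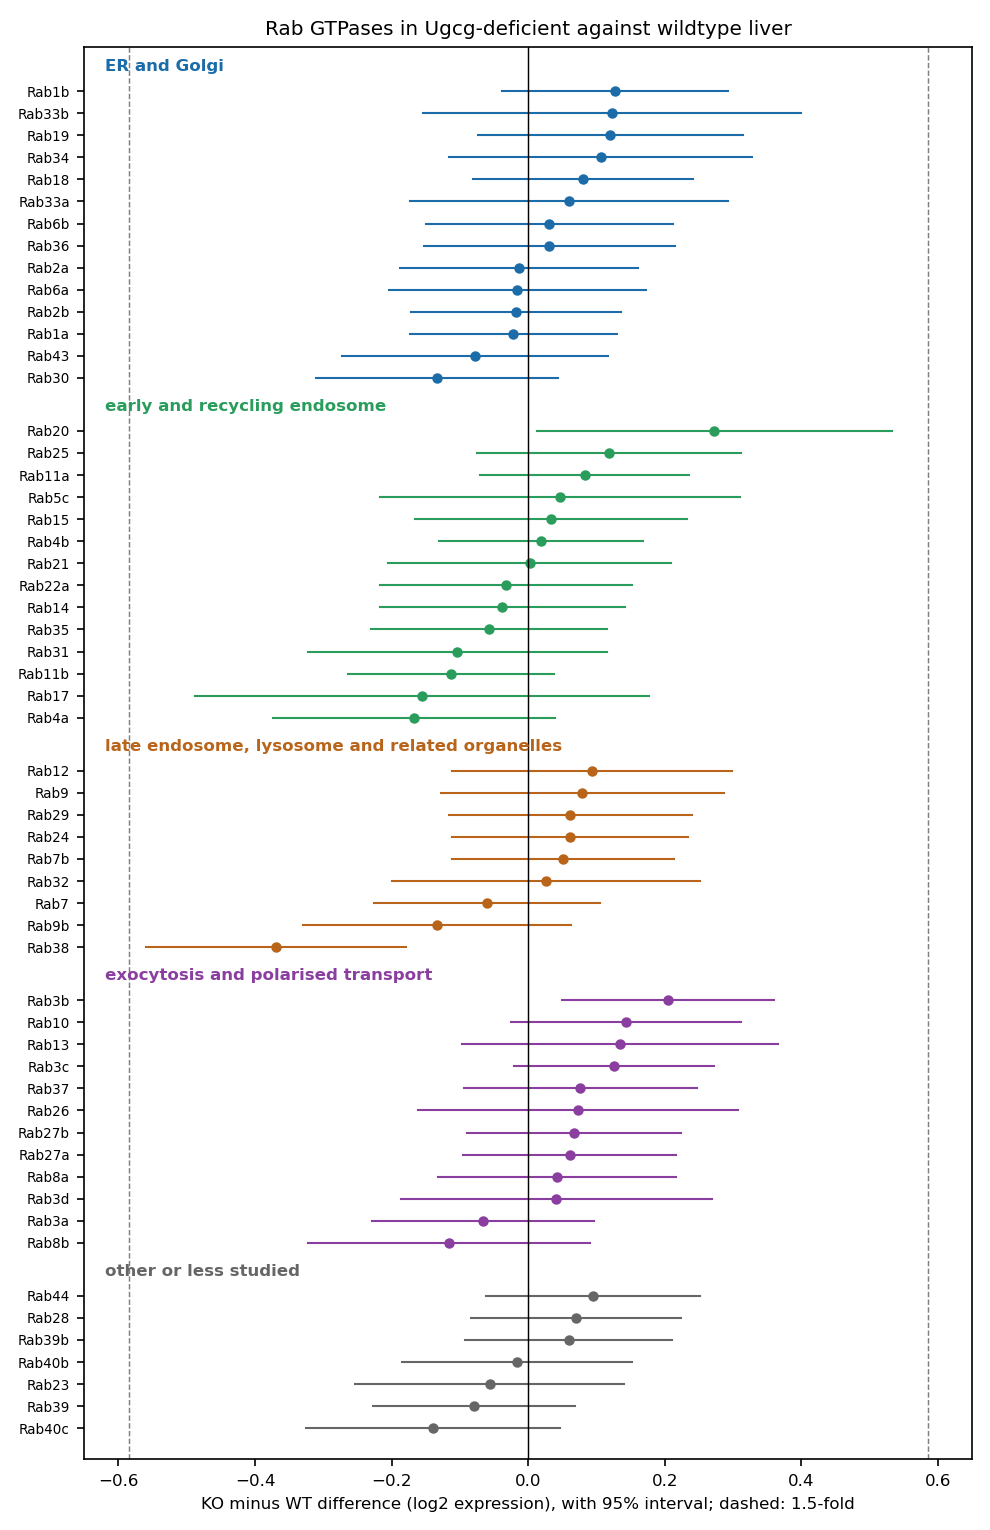
KO minus WT difference in log2 expression for each of the 56 Rabs, ordered within 5 role groups; points are differences, bars are 95% intervals from limma and dashed lines mark a 1.5-fold change. Only the intervals of Rab38, Rab3b and Rab20 leave out 0, and all 56 intervals stay inside the dashed lines.

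For 8 Rabs, or 14.3%, the KO and WT values did not overlap, against 9.57% of all probe sets. Rab1b, Rab3b, Rab3c and Rab20 lay above every WT array (background 5.10%), and Rab11b, Rab30, Rab38 and Rab39 lay below every WT array (background 4.47%). For each of these 8, an exact two-sided permutation test of 3 arrays against 3 gives p = 0.1, the lowest that it can reach. Rab38, which works with its relative Rab32 in the biogenesis of melanosomes and other lysosome-related organelles and is mutated in the chocolate coat-colour mouse, read 6.57, 6.76 and 6.72 on the KO arrays, against 6.98, 7.17 and 7.01 on the WT arrays. The gap between the groups was wider than the spread within either. Its difference was -0.37 (SE 0.08, 95% interval -0.56 to -0.18, limma adjusted p = 0.670). When each array was left out in turn, the difference lay between -0.41 and -0.31.

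Rab3b belongs to the Rab3 group of regulated exocytosis. It read 6.90, 6.93 and 6.99 on the KO arrays, against 6.79, 6.70 and 6.72 on the WT arrays. All KO arrays lay above all WT arrays, and both groups were tight, with SDs of 0.04 on KO and 0.05 on WT arrays. The difference was 0.20 (SE 0.07, 95% interval 0.05 to 0.36, limma adjusted p = 0.951). Without KO 431 or without WT 428 its unadjusted limma p was no longer under 0.05. KO 431, the highest array for Rab3b, is also the highest for S100a8, S100a9, Adipoq, Fabp4 and Retn. The other measured neutrophil and adipose markers were not above the WT arrays there. The part of these transcripts in Rab3b was not tested.

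Rab20, a Rab of endosomes and phagosomes, read 7.0005, 6.99 and 6.90 on the KO arrays, against 6.76, 6.88 and 6.42 on the WT arrays. The KO arrays lay close together, and WT 430 stood well below the other WT arrays. The difference was 0.27 (SE 0.11, 95% interval 0.01 to 0.53, limma adjusted p = 0.982). Without WT 430 it was 0.14. Of the 6 fits that each left out an array, only that without WT 428 kept the unadjusted limma p of Rab20 under 0.05. WT 430 is the array with the high pancreas markers, and their part in the value of Rab20 was not tested.

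Rab3c, a relative of Rab3b known mainly from neurons, read 5.87, 5.86 and 5.83 on the KO arrays, against 5.71, 5.72 and 5.75 on the WT arrays. It was among the dimmest probe sets, at the 3.77th percentile of signal, and differed by 0.13 (limma adjusted p = 0.982). Rab30, a Rab of the Golgi, read 6.68, 6.75 and 6.74 on the KO arrays, against 6.78, 6.99 and 6.81 on the WT arrays. The separation of its groups was narrow, and it differed by -0.13 (limma adjusted p = 0.982). Rab39 read 5.83, 5.89 and 5.87 on the KO arrays, against 5.98, 5.93 and 5.92 on the WT arrays. This probe set was also dim, at the 8.39th percentile, and differed by -0.08 (limma adjusted p = 0.982).

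**Figure D2:**
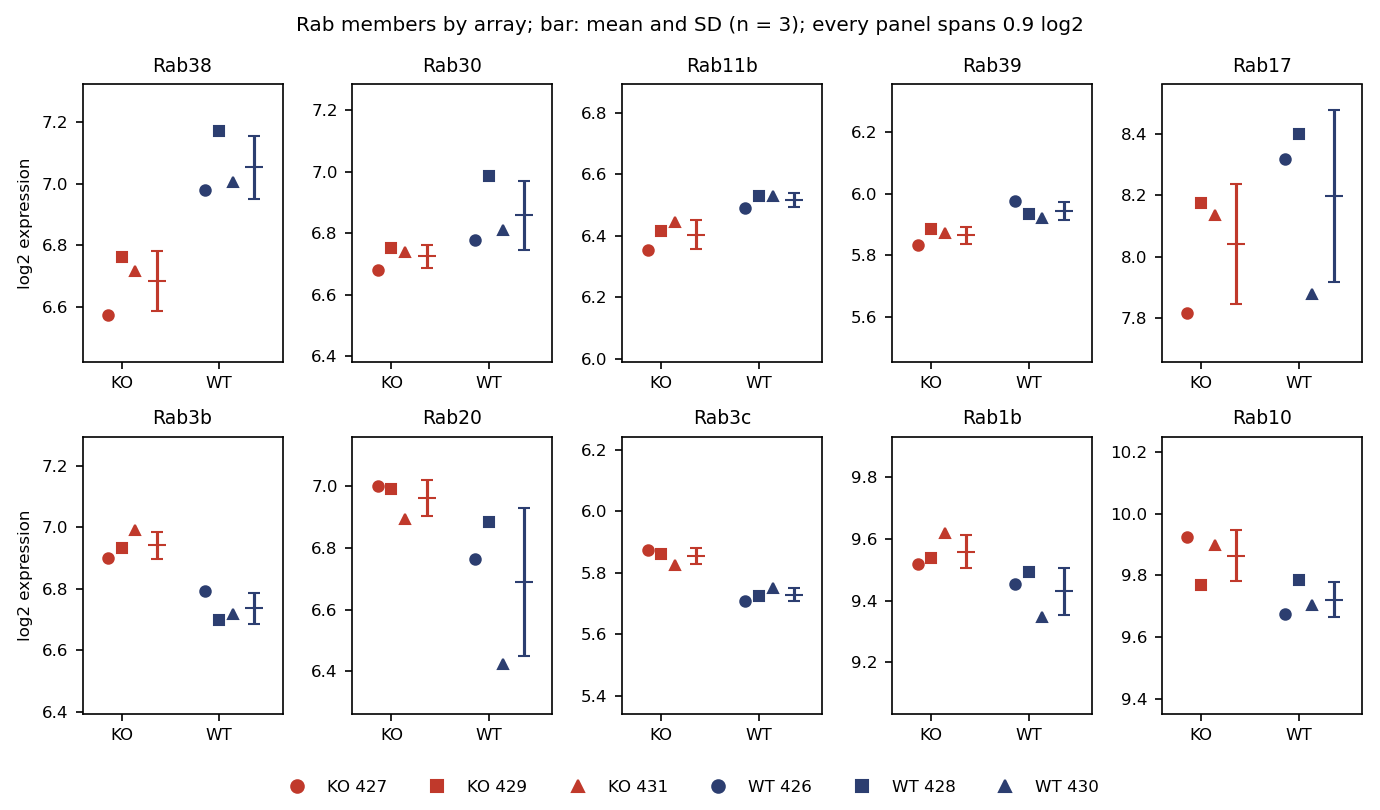
Log2 expression on each array of the 8 Rabs whose groups do not overlap, and of Rab17 and Rab10, whose groups do; symbols are arrays, and the bar beside them is the mean with SD of 3 arrays. Every panel spans the same log2 range; Rab38 shows the widest gap between groups, and for Rab17 the arrays KO 427 and WT 430 are low together.

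Promoter sequences are shown for Rab3b and Rab20, the higher of the Rabs at an unadjusted p under 0.05, and for Rab21 and Rab24, which share a motif found in few promoters. Rab38, the lower one, had no window to show. The sequences come from RefSeq on GRCm38.p6, on the strand of the gene, with 250 bases before and 50 bases from the annotated start. The window of Rab3b is chr4:108878820-108879119 (plus strand) and that of Rab20 is chr8:11478591-11478890 (minus strand). The window of Rab21 is chr10:115315542-115315841 (minus strand) and that of Rab24 is chr13:55321931-55322230 (minus strand). Capitals mark TATAAA in Rab3b, CACGTG in Rab20 and TCACGTGA in Rab21 and Rab24.
Rab3b: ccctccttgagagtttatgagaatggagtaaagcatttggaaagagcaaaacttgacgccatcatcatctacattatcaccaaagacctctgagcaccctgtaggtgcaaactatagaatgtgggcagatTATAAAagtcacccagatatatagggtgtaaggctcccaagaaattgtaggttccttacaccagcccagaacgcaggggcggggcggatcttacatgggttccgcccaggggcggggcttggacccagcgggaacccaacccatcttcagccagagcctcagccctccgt
Rab20: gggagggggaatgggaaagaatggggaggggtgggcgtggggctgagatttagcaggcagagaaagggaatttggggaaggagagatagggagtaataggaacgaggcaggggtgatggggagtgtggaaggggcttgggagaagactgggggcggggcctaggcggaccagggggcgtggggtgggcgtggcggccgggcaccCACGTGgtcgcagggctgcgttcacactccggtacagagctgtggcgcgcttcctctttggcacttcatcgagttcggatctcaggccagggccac
Rab21: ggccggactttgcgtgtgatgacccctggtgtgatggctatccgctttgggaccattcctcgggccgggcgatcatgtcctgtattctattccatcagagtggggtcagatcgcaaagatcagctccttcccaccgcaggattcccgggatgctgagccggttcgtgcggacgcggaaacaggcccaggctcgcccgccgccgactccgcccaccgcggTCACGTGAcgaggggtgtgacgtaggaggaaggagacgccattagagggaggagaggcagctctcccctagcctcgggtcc
Rab24: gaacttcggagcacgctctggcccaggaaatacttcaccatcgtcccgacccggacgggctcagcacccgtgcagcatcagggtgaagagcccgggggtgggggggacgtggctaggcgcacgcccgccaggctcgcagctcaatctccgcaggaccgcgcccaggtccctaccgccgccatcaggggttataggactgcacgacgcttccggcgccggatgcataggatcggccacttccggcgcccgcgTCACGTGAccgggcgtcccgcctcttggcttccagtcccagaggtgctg

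RefSeq windows matched 45 of the 56 Rabs by symbol, with 57 windows in all. TCACGTGA, a form of E-box known from promoters of lysosomal genes, stood in 3.51% of Rab windows and in 0.974% of all 32851 windows; the Rab matches are the 2 windows printed for Rab21 and Rab24. CACGTG, which lies within every TCACGTGA, stood in 8.77% of Rab windows and in 7.15% of all windows. The GC box GGGCGG stood in 66.7% of Rab windows, against 35.7% of all windows. TATAAA stood in 5.26% of Rab windows, against 13.6% of all windows. Both strands were searched for 8 motifs; TTCCGG stood in 26.3% of Rab windows, against 14.9%, CCGGAAGT in 3.51%, against 3.89%, CCAAT in 40.4%, against 37.4%, and TGACGTCA in 1.75%, against 1.79%. CCGGAAGT and TTCCGG can overlap, since TTCCGG on the other strand reads CCGGAA. Rab windows held a median of 20 CG dinucleotides, against 7 in all windows. A match describes letters in the window and does not show that a factor binds there.

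The 2 Rabs with TCACGTGA overlapped between the groups. Rab21, a Rab of early endosomes, read 9.69, 9.47 and 9.58 on the KO arrays, against 9.73, 9.50 and 9.51 on the WT arrays. Its difference was 0.002 (95% interval -0.21 to 0.21). Rab24, a Rab linked to autophagy, read 8.29, 8.08 and 8.23 on the KO arrays, against 8.12, 8.13 and 8.17 on the WT arrays. Its difference was 0.06 (95% interval -0.11 to 0.23).

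Among Rabs of the ER and the Golgi, 8 of 14, or 57.1%, were above 0, against 52.5% of all probe sets, and 0 had an unadjusted limma p under 0.05. Their median difference was 0.03, against 0.02 without WT 426, 0.01 without both WT 430 and KO 427 and -0.01 above the 40th percentile of signal. Rab1a and Rab1b both act between the ER and the Golgi. Rab1b read 9.52, 9.54 and 9.62 on the KO arrays, against 9.46, 9.49 and 9.35 on the WT arrays. Its groups stood apart by less than the SD of either, and it differed by 0.13 (95% interval -0.04 to 0.29, limma adjusted p = 0.982). Rab1a read 10.40, 10.33 and 10.43 on the KO arrays, against 10.41, 10.38 and 10.44 on the WT arrays. These groups overlapped, with a difference of -0.02 (95% interval -0.17 to 0.13). Rab2a, of the same step, differed by -0.01 (95% interval -0.19 to 0.16). Rab6a, of transport within and out of the Golgi, read 9.66, 9.64 and 9.64 on the KO arrays, against 9.50, 9.74 and 9.74 on the WT arrays. The KO arrays of Rab6a lay inside the WT range. Rab18, which is found on the ER and on lipid droplets, read 10.05, 9.98 and 9.95 on the KO arrays, against 9.87, 9.88 and 9.99 on the WT arrays. Only WT 430 reached into the KO range of Rab18, and its difference was 0.08 (95% interval -0.08 to 0.24). Rab33b, a Golgi Rab that binds the autophagy protein Atg16l1, was among the 5 Rabs with the largest spread within groups, and read 7.73, 7.92 and 8.15 on the KO arrays, against 7.74, 7.999 and 7.69 on the WT arrays. Its groups overlapped widely (difference 0.12, 95% interval -0.15 to 0.40).

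Among Rabs of early and recycling endosomes, 7 were above 0 and 7 below, with a median of -0.02 that lay between -0.03 and -0.0012 as each array was left out and was 0.002 above the 40th percentile of signal. Rab5c, of early endosome fusion, read 9.44, 9.37 and 9.27 on the KO arrays, against 9.48, 9.42 and 9.04 on the WT arrays. WT 430 was its lowest array, and the difference of 0.05 became -0.09 without it. Rab11a, of recycling endosomes and of apical delivery in epithelia, read 9.41, 9.41 and 9.37 on the KO arrays, against 9.27, 9.38 and 9.29 on the WT arrays. The KO arrays of Rab11a were nearly equal, and only WT 428 reached into their range (difference 0.08, 95% interval -0.07 to 0.24). Its close relative Rab11b read 6.35, 6.42 and 6.44 on the KO arrays, against 6.49, 6.53 and 6.53 on the WT arrays. The KO arrays of Rab11b lay below the WT arrays (difference -0.11, 95% interval -0.26 to 0.04), and the difference between the relatives was not tested. Rab4a, of fast recycling, read 8.27, 8.31 and 8.50 on the KO arrays, against 8.48, 8.66 and 8.44 on the WT arrays. Only KO 431 reached the WT range of Rab4a, which had the lowest difference of these endosomal Rabs, -0.17 (95% interval -0.37 to 0.04). Without KO 431 the unadjusted limma p of Rab4a was under 0.05. Rab14, of traffic between endosomes and the Golgi, differed by -0.04 (95% interval -0.22 to 0.14). Rab35, of recycling to the plasma membrane, differed by -0.06 (95% interval -0.23 to 0.12).

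Rab17, an epithelial Rab of transcytosis and apical recycling, had the widest spread within groups of all 56 Rabs, with a residual SD of 0.24. It read 7.82, 8.18 and 8.13 on the KO arrays, against 8.32, 8.40 and 7.88 on the WT arrays. KO 427 was the lowest KO array and WT 430 the lowest WT array. Both lay below all other arrays for 5 of 56 Rabs, or 8.93%, against 9.67% of all probe sets. The difference of Rab17 was -0.16 (95% interval -0.49 to 0.18, limma adjusted p = 0.984). It was -0.32 without WT 430, where the unadjusted limma p was under 0.05, -0.04 without KO 427, -0.05 without WT 428 and -0.20 without both KO 427 and WT 430. Over all alternatives the limma adjusted p of Rab17 lay between 0.658 and 0.9997. The part of the muscle and pancreas transcripts of these arrays in Rab17 was not tested.

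Among Rabs of late endosomes, lysosomes and related organelles, 6 of 9, or 66.7%, were above 0, with a median of 0.05. The median was 0.0088 without KO 427, 0.03 without WT 426 and 0.02 without WT 430, and it turned to -0.04 without both KO 427 and WT 430. Rab7, the main Rab of late endosome maturation and lysosome fusion, read 10.31, 10.29 and 10.23 on the KO arrays, against 10.26, 10.43 and 10.32 on the WT arrays. Its groups overlapped (difference -0.06, 95% interval -0.23 to 0.11). Rab9, of transport from late endosomes back to the Golgi, read 10.73, 10.54 and 10.49 on the KO arrays, against 10.64, 10.47 and 10.42 on the WT arrays. Both groups of Rab9 spanned a similar range (difference 0.08, 95% interval -0.13 to 0.29). Rab32, the relative of Rab38, read 8.84, 9.02 and 8.83 on the KO arrays, against 8.96, 8.98 and 8.68 on the WT arrays. It overlapped between groups, with a difference of 0.03 (95% interval -0.20 to 0.25) that became -0.07 without WT 430. The difference between Rab38 and Rab32 was not tested. Hps1 and Hps4, which together form the exchange factor of both, differed by -0.13 and -0.10, and Ankrd27, an effector of both, by -0.05; none of these had an unadjusted limma p under 0.05.

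Among Rabs of exocytosis and polarised transport, 10 of 12, or 83.3%, were above 0, against 52.5% of all probe sets, and Rab3a (-0.07) and Rab8b (-0.12) were below 0. The median was 0.07, against 0.05 without WT 430, 0.02 without both WT 430 and KO 427 and 0.04 above the 40th percentile of signal. Rab10, of basolateral delivery and of insulin-driven glucose transporter traffic in fat cells, read 9.93, 9.77 and 9.90 on the KO arrays, against 9.68, 9.79 and 9.70 on the WT arrays. Only WT 428 reached into the KO range of Rab10, which differed by 0.14 (95% interval -0.03 to 0.31, limma adjusted p = 0.982). Rab8a, of apical delivery, read 9.28, 9.25 and 9.35 on the KO arrays, against 9.30, 9.31 and 9.14 on the WT arrays. Its groups overlapped (difference 0.04, 95% interval -0.13 to 0.22). Rab27a and Rab27b, of the docking of secretory granules, were dim, at percentiles 11.1 and 14.2 of signal, and differed by 0.06 and 0.07.

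Rab3d, Rab26 and Rab27b are known from secretory granules of acinar cells and were set beside the pancreas markers. Rab3d read 7.02, 7.01 and 7.20 on the KO arrays, against 7.03, 7.21 and 6.87 on the WT arrays. Rab26 read 6.59, 6.62 and 6.41 on the KO arrays, against 6.67, 6.35 and 6.38 on the WT arrays. Rab27b read 6.02, 6.11 and 6.01 on the KO arrays, against 6.03, 5.96 and 5.95 on the WT arrays. WT 430 held the lowest of the 6 values for Rab3d and Rab27b and the next to lowest for Rab26. Cpa1, a pancreatic carboxypeptidase, read 6.11, 6.25 and 6.11 on the KO arrays, against 6.20, 6.29 and 9.70 on the WT arrays, and was highest on WT 430 by a wide margin. The part of the pancreas transcripts in the values of Rab3d, Rab26 and Rab27b was not tested.

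Relatives were also set side by side. Within the Rab3 group the differences were 0.20 for Rab3b, 0.13 for Rab3c, 0.04 for Rab3d and -0.07 for Rab3a. They were -0.01 for Rab2a and -0.02 for Rab2b, -0.17 for Rab4a and 0.02 for Rab4b, and -0.02 for Rab6a and 0.03 for Rab6b. The signs of Rab2a, Rab2b, Rab6a and Rab6b turned under some alternatives, and no 95% interval among these 6 left out 0. The differences were 0.08 for Rab9 and -0.13 for Rab9b, -0.03 for Rab22a and -0.10 for Rab31, and 0.12 for Rab33b and 0.06 for Rab33a. They were 0.06 for Rab39b and -0.08 for Rab39, and -0.14 for Rab40c and -0.02 for Rab40b. Of these relatives, Rab2b, Rab3c, Rab6b, Rab9b, Rab33a, Rab39, Rab39b and Rab40b were dim, from percentile 3.51 of signal for Rab9b to 29.5 for Rab6b. Their differences may not compare with those of brighter relatives. No difference between relatives was tested. The less studied Rabs had 3 members above 0 and 4 below, from -0.14 for Rab40c to 0.09 for Rab44.

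Of the 56 Rabs, 39 lay above the 40th percentile of mean signal. These had a median difference of 0.03, with 22 above 0, and included all 3 Rabs at an unadjusted limma p under 0.05. The 17 dimmer Rabs had a median of 0.06, with 12 above 0. Across arrays the family was lowest on WT 430, which held the lowest of the 6 values for 18 Rabs, or 32.1%, against 18.3% of all probe sets. KO 427 held the lowest value for 13 Rabs, or 23.2%, against 18.6%. Relative to each gene's WT mean, the median Rab stood at 0.03, 0.01 and 0.0099 on KO 427, KO 429 and KO 431, against -0.00016, 0.04 and -0.05 on WT 426, WT 428 and WT 430. The KO medians thus lay inside the WT range. The median difference of the family was 0.02 without KO 427. Without WT 430 it was 0.01, with 30 Rabs above 0, and without both WT 430 and KO 427 it was 0.0049, with 30 above 0.

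**Figure D3:**
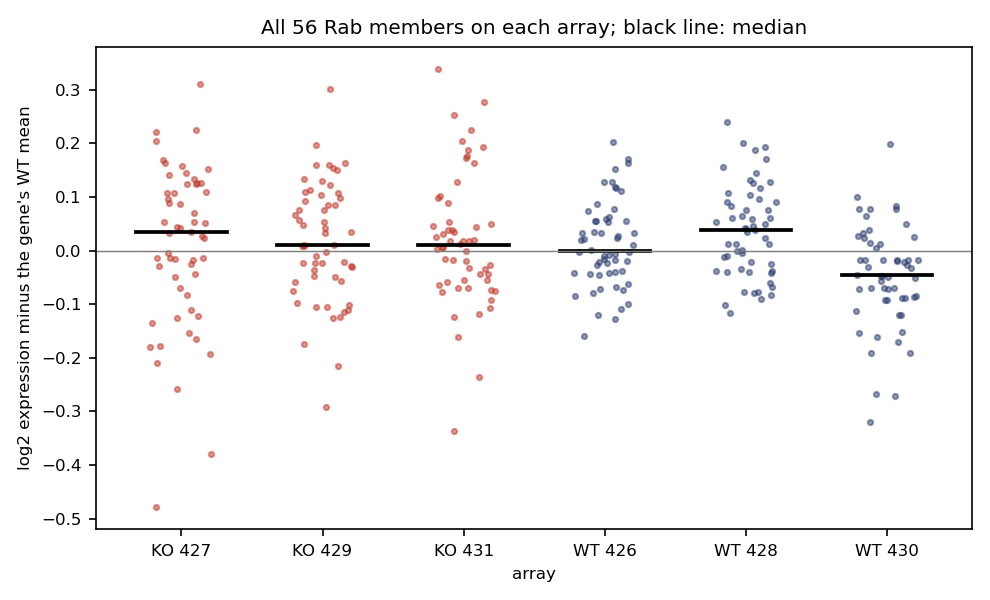
Log2 expression of each of the 56 Rabs on each array, minus the gene's mean over the WT arrays; points are genes and the black line is the median on that array. The medians run from -0.05 on WT 430 to 0.04 on WT 428, and the 3 KO medians lie between them.

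The proteins that load, anchor and switch Rabs were described with 5 lists, in which 135 of 153 genes had a named probe set. In limma's fit 0 of them passed an adjusted p under 0.05, and 7 had an unadjusted p under 0.05 (2 higher and 5 lower), or 5.19%, near the 4.99% of all probe sets. Their median difference was 0.01. In the Rab cycle list, with the escort proteins, the prenyl transferase and the GDP dissociation inhibitors, 6 of 8 were above 0 and 0 had an unadjusted p under 0.05. Gdi2, which draws inactive Rabs off membranes, read 10.86, 10.86 and 10.85 on the KO arrays, against 10.85, 10.79 and 10.76 on the WT arrays. The KO arrays of Gdi2 were nearly equal, and its difference was 0.06 (95% interval -0.09 to 0.21). Chm, an escort protein that presents new Rabs for prenylation, differed by -0.08 (95% interval -0.28 to 0.12). Rabif, a chaperone of nucleotide-free Rabs, differed by 0.06 (95% interval -0.13 to 0.25).

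Of 34 measured exchange factors, 20 were above 0 and 3, or 8.82%, had an unadjusted limma p under 0.05, against 4.99% of all probe sets; these 3 were lower, as were 2.35% of all probe sets. Dennd4a, an exchange factor for Rab10, read 7.50, 7.82 and 7.92 on the KO arrays, against 8.26, 8.11 and 8.06 on the WT arrays. All KO arrays lay below all WT arrays, and KO 427 was the lowest. The difference was -0.40 (95% interval -0.66 to -0.14, limma adjusted p = 0.890), and -0.28 without KO 427. Dennd2c, known in human cells as an exchange factor for Rab9, differed by -0.19 (95% interval -0.36 to -0.03). Sbf2, known as an exchange factor for Rab21 and Rab28, differed by -0.19 (95% interval -0.37 to -0.006).

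Of 34 measured GTPase activating proteins, 21 were above 0 and 1, Sgsm1, or 2.94%, had an unadjusted p under 0.05, against 4.99% of all probe sets. It read 6.49, 6.47 and 6.39 on the KO arrays, against 6.16, 6.23 and 6.36 on the WT arrays. Its KO arrays lay above its WT arrays (difference 0.21, 95% interval 0.03 to 0.38, limma adjusted p = 0.952). Usp6nl, which acts on Rab5, differed by 0.25 (95% interval -0.0062 to 0.50) and Rabgap1 by 0.15 (95% interval -0.04 to 0.34). Tbc1d4 and Tbc1d1, which act on Rab10 among others, differed by -0.13 and 0.05.

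Of 53 measured effectors and tethers, 25 were above 0 and 3, or 5.66%, had an unadjusted limma p under 0.05, near the 4.99% of all probe sets. Pik3r4, a subunit of the phosphatidylinositol kinase Vps34 that serves endosomes and autophagy, differed by 0.61 (limma adjusted p = 0.0736); over the alternatives the adjusted p lay between 0.0489, with array quality weights, and 0.307. Ehbp1, an effector that binds Rab8 and Rab10, read 6.90, 7.15 and 7.13 on the KO arrays, against 7.28, 7.25 and 7.26 on the WT arrays. All KO arrays of Ehbp1 lay below the WT arrays, which were nearly equal (difference -0.21, 95% interval -0.40 to -0.01, limma adjusted p = 0.982), and without KO 427 the difference was -0.12. Rab11fip4, an effector of Rab11, differed by -0.19 (95% interval -0.36 to -0.02). Of the 7 machinery genes at an unadjusted limma p under 0.05, Dennd4a and Pik3r4 stayed there in all 6 fits that each left out an array, while Dennd2c, Sbf2, Sgsm1, Ehbp1 and Rab11fip4 each left it in 4 of the 6. Dennd2c, Sgsm1 and Rab11fip4 were dim, at percentiles 27.1, 32.8 and 27.4 of signal. The 6 measured Rab-like genes were all above 0, against 52.5% of all probe sets. Of these, 0 had an unadjusted p under 0.05, and their median was 0.12. Rabl2, of ciliary transport, differed by 0.20, Rabl6 by 0.18 and Rasef by 0.15. Rasef was among the dimmest probe sets, at percentile 0.502 of signal.

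**Figure D4:**
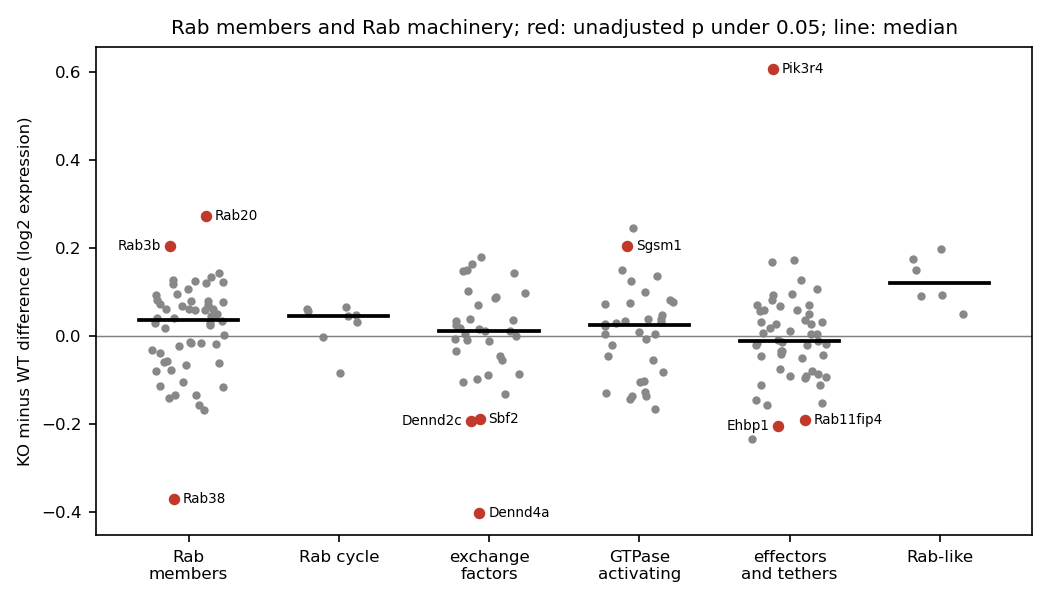
KO minus WT differences in log2 expression of the 56 Rabs and of the genes in 5 Rab machinery lists; each point is a gene, red points have an unadjusted limma p under 0.05 and are named, and black lines are medians. Rab38 and Dennd4a lie lowest and Pik3r4 highest.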

How the data were processed

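RNA of 3 Ugcg-deficient and 3 wildtype mouse liver samples was measured on Affymetrix arrays. The authors deposited 1 table of values taken here as log2 expression, a scale read from their range (5.38 to 14.69). How the authors corrected background, normalized and summarised is not given in the sources used here. The medians of the arrays lay within 0.0190 of each other. The small number of arrays limits precision. Of 16395 probe sets, 64 controls were left out. Symbols came from GEO's platform annotation, checked against RefSeq genes of GRCm38.p6; 687 probe sets without a symbol stayed unnamed. Brightness of different probe sets was not compared as abundance. Rab5a, Rab5b and Rab42 are not analysed here.

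KO minus WT was fitted with limma 3.58.1 in R 4.3.3 (lmFit, eBayes; 4 residual and 4.85 prior degrees of freedom). Tests were two-sided, and Benjamini-Hochberg adjustment ran over 16331 probe sets at a threshold of 0.05. An exact permutation of 3 against 3 could reach no lower than p = 0.1. The code was tested on simulated data.

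Members and lists were chosen with earlier results of these data known, so no list was tested. Named Rabs had an unadjusted p under 0.05 or groups that did not overlap, were among the 10 brightest or the 5 most variable within groups, belonged to a set known from hepatocytes or secretory cells, or were relatives given side by side. Each machinery list gave its 3 smallest p-values. Rab24, Rab44, Hps1, Hps4, Ankrd27, Tbc1d1, Tbc1d4 and Cpa1, the promoter motifs, the promoters shown and the 1.3-fold bound were chosen once values had been seen; TCACGTGA took the place of a longer form of the motif, and the bound that of a slightly narrower one. Rab protein sequences are not analysed here. Alternatives changed the normalization, centring, signal filter, variance model, array weights, thresholds or arrays included.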

Additional observations from a re-analysis of the deposited data

How the results depend on the processing

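No Rab passed an adjusted p under 0.05 under any alternative run, and the smallest adjusted p was 0.427. The sign of the difference was the same throughout for 37 of 56 Rabs and turned under at least 1 alternative for the other 19. Rabs higher at an unadjusted limma p under 0.05 numbered 2 as reported, 3 with the intensity trend and robust variance (Rab3c in addition), 1 with array quality weights, 1 without both WT 430 and KO 427, 0 at a threshold of 0.01 and 0 to 2 with each array left out in turn; Rabs lower numbered 1 as reported and 1 to 2 with each array left out. Among the fits that left out an array, Rab10 joined without KO 429 and Rab4a without KO 431. Rab33a joined without WT 428, and Rab17 without WT 430. Machinery genes higher numbered 2 as reported, 1 above the 40th percentile of signal, 5 with array quality weights and 1 to 6 with each array left out. Machinery genes lower numbered 5 as reported, 7 with quantile normalization, 6 with array quality weights, 2 above the 40th percentile, 2 without both arrays and 1 to 5 with each array left out. The median Rab difference was 0.00488 without both arrays. The causes were not tested.

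Without WT 430 and KO 427 the difference was -0.00610 for Rab13, as against 0.134 as reported, 0.0337 for Rab31, as against -0.104, -0.0859 for Rab21, 0.00586 for Rab2a, -0.0420 for Rab32, -0.0146 for Rab3d, -0.129 for Rab5c, 0.0205 for Rab6a, -0.00684 for Rab8a and -0.0371 for Rab9. With array quality weights it was -0.0273 for Rab21, -0.00211 for Rab5c and 0.00582 for Rab6a, and with quantile normalization -0.00236 for Rab21. With each array left out, the range was -0.154 to 0.0675 for Ugcg, -0.0749 to 0.0233 for Rab14, -0.0448 to 0.00553 for Rab1a, -0.0508 to 0.0781 for Rab21, -0.0474 to 0.0352 for Rab2a, -0.0697 to 0.0778 for Rab32, -0.0436 to 0.127 for Rab3d, -0.0889 to 0.129 for Rab5c, -0.0957 to 0.0264 for Rab6a, -0.0143 to 0.0716 for Rab8a and -0.00846 to 0.110 for Rabif. The labels do not say whether arrays were paired, and the groups share no replicate numbers, so no paired analysis was run. With 3 arrays a group, a difference whose interval holds 0 could not be told from 0.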
